A study of Arabidopsis thaliana with 12 samples.

Results

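The 50 genes described here are nuclear genes of Arabidopsis thaliana whose proteins carry out photosynthesis in the chloroplast. They were picked by gene code from a list drawn up by function, with earlier results of these data already known. All 50 are among the 32678 genes of the deposited read count table. Read counts were taken from whole seedlings grown for 8 days in medium with sucrose, under long days, and moved to liquid medium before treatment. The 4 groups, each of 3 libraries, were mapkkk5 treated with chitin for 3 hours, mapkkk5 given mock treatment, Col treated with chitin for 3 hours, and Col given mock treatment. Col stands for the wild type Col-0, and mapkkk5 for the mutant mapkkk5-1 in the kinase gene MAPKKK5, whose lesion the labels do not describe. Chitin, a polymer of fungal cell walls, is perceived by plants as a microbial signal. The submitted texts give its concentration in different units, so it is not quoted. The design text speaks of 3 independent experiments. Libraries with the same replicate number deviated together in all 12 pairs within a comparison of 2 groups, though not in all 18 same-numbered pairs. The numbers are therefore called experiments 1, 2 and 3 below. The design compares the transcriptional response to chitin in mutant and wild type.

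In the light reactions, antenna proteins pass absorbed energy to photosystem II, which takes electrons from water, and to photosystem I, which hands them to ferredoxin. The cytochrome b6f complex and plastocyanin carry electrons between the photosystems, and ATP synthase uses the proton gradient. Rubisco, assembled from a plastid-encoded large subunit and nuclear-encoded small subunits, fixes CO2 in the Calvin-Benson cycle and is kept active by Rubisco activase. Most of these proteins are encoded in the nucleus by small families of similar genes, and their transcripts are known to respond to light, sugar, the clock and stress.

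By role, the 50 genes comprise 5 for Rubisco and its activase, 4 for the photosystem I antenna, 9 for the major photosystem II antenna, 5 for the minor photosystem II antenna, 10 for other photosystem II subunits, 12 for photosystem I subunits, and 5 for electron carriers and ATP synthase. The libraries held 15455836 to 20179428 reads, so that 3 reads, the limit that a count of 0 would allow, corresponded to 0.152 to 0.200 CPM (read counts scaled to a common library size). No gene of the 50 was near that limit: the lowest count was 28 reads, for LHCB2.3, and all 50 passed the filter on low counts that 20994 genes passed. Levels differed widely. Per kilobase of coding sequence, averaged over all 12 libraries, RBCS1A (AT1G67090) stood highest at 11346 CPM per kb and LHCB1.3 (AT1G29930) came next at 4279 CPM per kb, while LHCB2.3 was lowest at 4.82 CPM per kb. In mutant libraries, MAPKKK5 had 26.7, 32.9 and 13.6 CPM with chitin and 3.90, 5.29 and 3.81 CPM with mock. Col libraries had 39.9, 37.5 and 45.3 CPM with chitin and 28.1, 25.7 and 21.7 CPM with mock. Within each treatment every mutant library was below every Col library, but its level in mutant seedlings given chitin overlapped that of Col mock.

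Several families consist of near-identical copies, so the first 60 coding bases are shown for the 2 families on which most of the results turn, to let a reader see how a read can or cannot tell copies apart. The sequences are from RefSeq, build TAIR10.1, and run 5′ to 3′ from the start codon on the coding strand. Capitals mark bases that differ from the first gene of each family. RBCS1A lies on chr1:25049190-25049249 (minus strand). RBCS1B, RBCS2B and RBCS3B are neighbours on chromosome 5, at chr5:15385096-15385155, chr5:15381919-15381978 and chr5:15378247-15378306, all on the minus strand.
RBCS1A: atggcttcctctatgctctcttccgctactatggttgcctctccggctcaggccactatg
RBCS1B: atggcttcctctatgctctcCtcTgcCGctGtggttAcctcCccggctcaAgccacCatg
RBCS2B: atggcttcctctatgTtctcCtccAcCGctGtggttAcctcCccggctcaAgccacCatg
RBCS3B: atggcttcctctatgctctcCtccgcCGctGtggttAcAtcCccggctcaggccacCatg
In this window RBCS1B, RBCS2B and RBCS3B differed from RBCS1A at 9, 10 and 8 bases. Over the whole coding sequence RBCS1B and RBCS2B were 97.3% identical. RBCS1B and RBCS3B were 94.1% identical and shared an unbroken run of 230 bases, longer than any other run among the RBCS or LHCB1 pairs. The sources used here do not say how reads that match several copies were assigned, so values for these 3 genes are uncertain as a split among copies.

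In the LHCB1 family, LHCB1.3 is at chr1:10478071-10478130 (plus strand), with LHCB1.1 and LHCB1.2 beside it at chr1:10475833-10475892 and chr1:10473187-10473246 (both minus). LHCB1.4 and LHCB1.5 lie back to back on chromosome 2, at chr2:14524818-14524877 (plus) and chr2:14523454-14523513 (minus).
LHCB1.3: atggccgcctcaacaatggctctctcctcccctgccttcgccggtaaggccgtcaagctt
LHCB1.1: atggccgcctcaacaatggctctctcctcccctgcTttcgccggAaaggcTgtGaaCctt
LHCB1.2: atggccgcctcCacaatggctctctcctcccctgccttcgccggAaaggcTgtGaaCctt
LHCB1.4: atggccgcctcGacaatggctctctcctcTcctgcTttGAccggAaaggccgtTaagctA
LHCB1.5: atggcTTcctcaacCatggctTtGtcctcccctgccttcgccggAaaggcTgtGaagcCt
LHCB1.4 differed from LHCB1.3 at 8 of these 60 bases and LHCB1.5 at 9. Over the coding sequence LHCB1.4 was 86.8% identical to LHCB1.3 and shared no 50-base word with it, whereas 22.9% of the 50-base words of LHCB1.4 also occur in LHCB1.5. LHCB1.1 and LHCB1.3 were 96.1% identical, and 23.3% of the 50-base words of LHCB1.1 also occur in LHCB1.3. Of these words, 13.2% also occur in LHCB1.2. Values for the LHCB1 genes are therefore also uncertain as a split among copies.

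After 3 hours of chitin, transcripts of these genes were mostly lower, and RBCS1B, PSBO2 and ATPD, for subunits of Rubisco, the water-oxidising complex and ATP synthase, were among those that fell in both genotypes. Counting a gene as changed at an adjusted p below 0.05 (edgeR quasi-likelihood test, Benjamini-Hochberg adjustment over all genes tested), 11 of 50 fell and 0 rose in mapkkk5, where 15.7% of all genes tested fell and 19.1% rose. In Col, 17 fell and 0 rose, against 17.3% of all genes that fell and 21.2% that rose. With experiment as a block, which takes the differences between experiments out of the spread, 36 fell and 2 rose in mapkkk5 (22.7% and 24.5% of all genes) and 40 fell and 1 rose in Col (23.8% and 26.5%). At an unadjusted p below 0.05 there were 13 genes in mapkkk5 and 22 in Col, against 9210 and 9805 of all 20994 genes tested. These unadjusted counts take rises and falls together. The share among the 50 was below that of all genes in mapkkk5 and close to it in Col. DESeq2 found 13 and 21 that fell. In Col 11 fell without the mock library of experiment 1, and 11 without the chitin library of experiment 3. Shares of all genes called by DESeq2 or without these libraries are not given here. Averaged over genotypes, 26 fell and 0 rose (25.2% and 27.0% of all genes), or 41 and 2 with the block (30.2% and 31.3%). The median log2 fold change of the 50 was -0.31 in mapkkk5 and -0.41 in Col, and that of all genes was -0.00 in mapkkk5 and 0.00 in Col. With upper-quartile scaling the median of all genes was -0.09 in mapkkk5 and -0.11 in Col, and rises made up 43.5% and 41.7% of all calls, against 55.0% and 55.2% with the scaling used here. Fewer cells of a green type and less RNA per cell cannot be told apart in whole seedlings.

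Summed over the 50 genes, the level was 34498 ± 3980 CPM in mapkkk5 with chitin and 43524 ± 2654 CPM with mock (SD, n = 3 each). In Col it was 31973 ± 4419 CPM with chitin and 44388 ± 5746 CPM with mock. The ratio of chitin to mock was 0.844, 0.797 and 0.733 in experiments 1, 2 and 3 of mapkkk5, and 0.715, 0.759 and 0.686 in those of Col. Every one of the 6 pairs was thus below 1. Gene by gene, 41 of 50 were lower with chitin in all 6 pairs, against 27.6% of all genes, and 1, LHCB1.4, was higher in all 6. Within genotypes, 41 were lower in all 3 experiments of mapkkk5 (34.8% of all genes) and 45 in those of Col (34.1%). All chitin libraries lay below all mock libraries for 15 genes in mapkkk5 (22.3% of all genes) and 17 in Col (23.2%). The other 8 were mixed: LHCB1.5, LHCB2.1, LHCB2.2, LHCB4.2, PSBR, PSBW, PSAD2 and PSAE2.

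**Figure D1:**
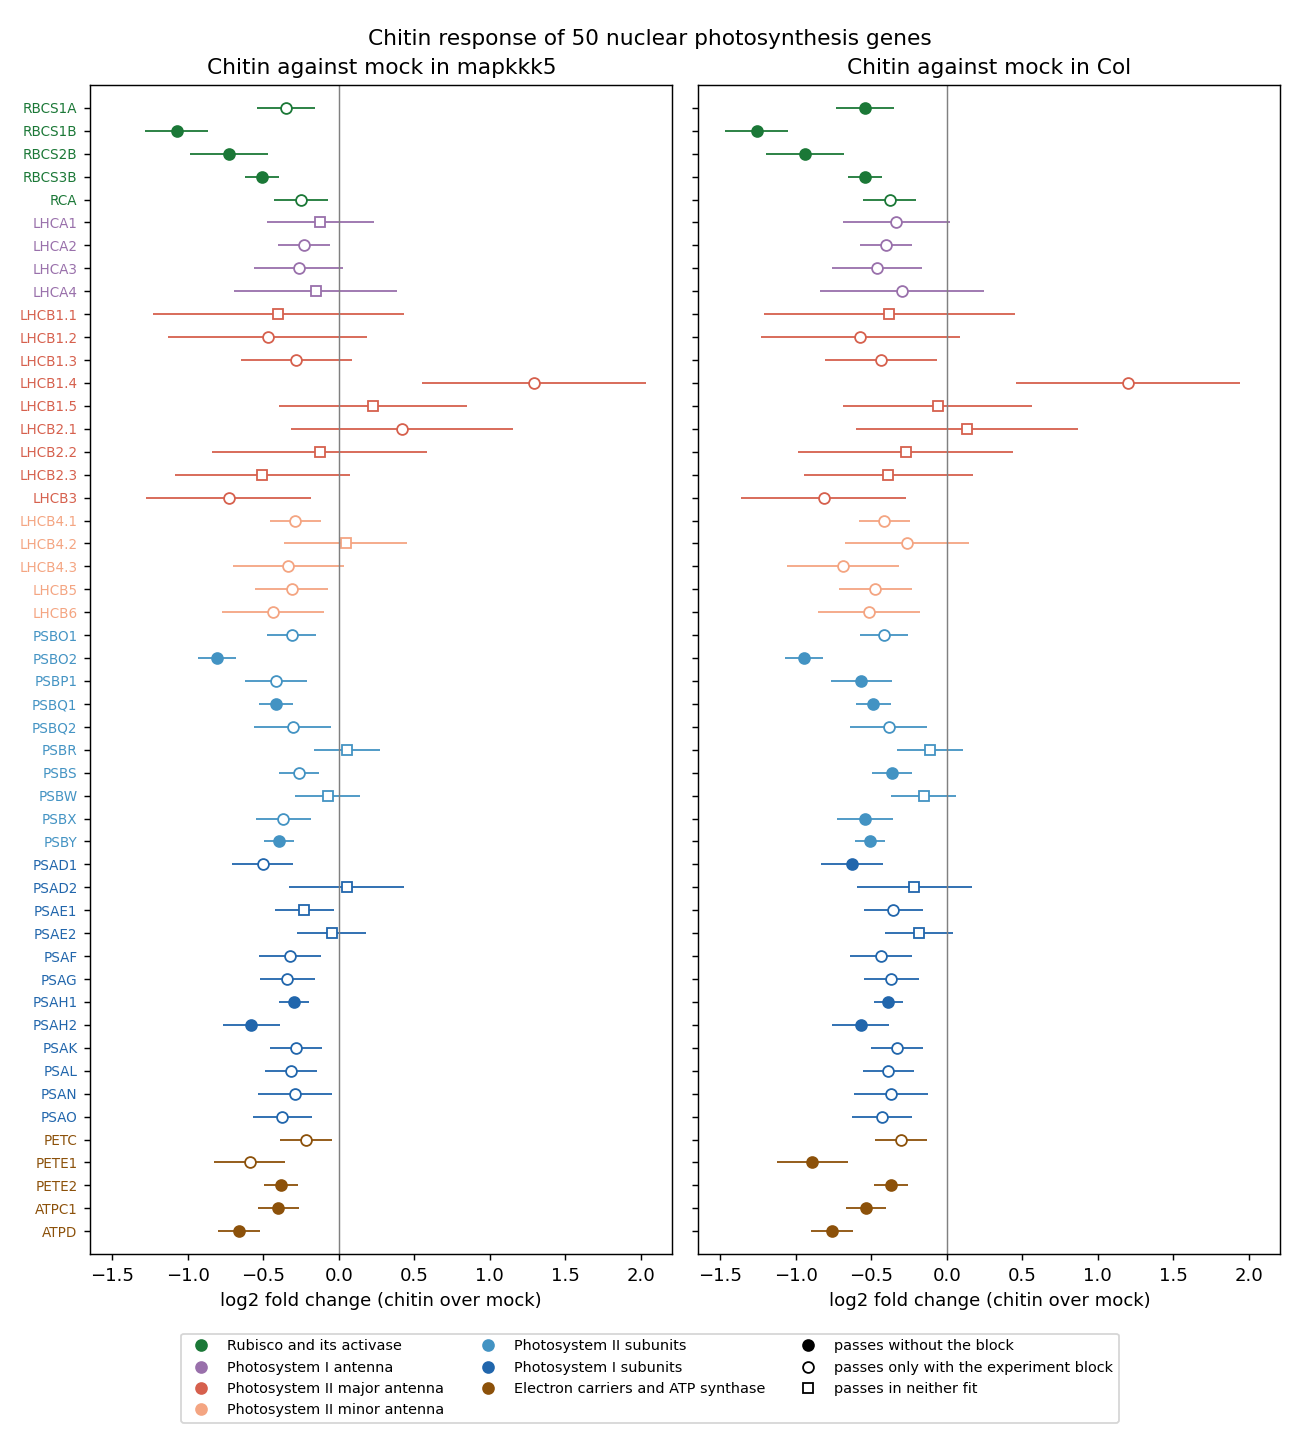
log2 fold change of chitin over mock for each of the 50 genes, with mapkkk5 on the left and Col on the right; bars are standard errors of the fit without the block. Filled circles pass the threshold without the block, open circles only with the experiment block and squares in neither; most genes lie left of 0, and LHCB1.4 stands alone near 1.2 to 1.3.

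Of the 5 genes for Rubisco and its activase, 3 fell in mapkkk5 and 4 in Col, where 15.7% and 17.3% of all genes fell. With the block 5 fell in each, where 22.7% and 23.8% of all genes fell. RBCS1B fell most of the 50. RBCS1B (AT5G38430), one of 4 genes for the small subunit, had 640.3, 637 and 807 CPM in mapkkk5 chitin libraries of experiments 1, 2 and 3, against 1175, 1414 and 1798 CPM in mapkkk5 mock libraries. In Col libraries it had 539, 541 and 851 CPM with chitin, against 1333, 1418 and 1874 CPM with mock. All chitin libraries were below all mock libraries in both genotypes. The log2 fold change was -1.07 ± 0.21 in mapkkk5 (SE, adjusted p = 0.00146) and -1.26 ± 0.21 in Col (adjusted p = 0.000385), so that the transcript fell by 52.5% and by 58.2%.

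RBCS2B (AT5G38420) had 837, 1077 and 1229 CPM in mapkkk5 chitin libraries of experiments 1, 2 and 3, against 1227, 1675 and 2299 CPM in mapkkk5 mock libraries. For Col the values were 768, 851 and 1299 CPM with chitin, against 1429, 1796 and 2373 CPM with mock. Chitin and mock libraries overlapped in mapkkk5 and were apart in Col, and experiment 3 was the highest under either treatment. It fell by 0.73 ± 0.26 on the log2 scale in mapkkk5 (adjusted p = 0.0431) and by 0.94 ± 0.26 in Col (adjusted p = 0.0111). RBCS3B (AT5G38410) had 1558, 1519.9 and 1708 CPM in mapkkk5 chitin libraries of experiments 1, 2 and 3, against 2165, 2188 and 2454 CPM in mapkkk5 mock libraries. In Col it had 1794, 1529 and 1811 CPM with chitin, against 2595, 2316 and 2566 CPM with mock. The groups did not overlap in either genotype, and it fell by 0.51 ± 0.11 in mapkkk5 (adjusted p = 0.0038) and by 0.54 ± 0.11 in Col (adjusted p = 0.00211).

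RBCS1A, the most abundant of the 4, had 4083, 6431 and 5994 CPM in mapkkk5 chitin libraries of experiments 1, 2 and 3, against 5278, 7940.0 and 7774 CPM in mapkkk5 mock libraries. Col libraries held 4365, 4912 and 5556 CPM with chitin, against 6677, 7021 and 7902 CPM with mock. In Col all chitin libraries were lower than all mock libraries, while in mapkkk5 the mock library of experiment 1 lay among the chitin libraries. The change passed the threshold in Col (-0.54 ± 0.19, adjusted p = 0.0387). In mapkkk5 it was -0.35 ± 0.19 (adjusted p = 0.183), or adjusted p = 0.0129 with the block. RCA (AT2G39730), Rubisco activase, had 1135, 1382 and 1456 CPM in mapkkk5 chitin libraries of experiments 1, 2 and 3, against 1220.5, 1611 and 1893 CPM in mapkkk5 mock libraries. Its Col values were 1175, 1353 and 1605 CPM with chitin, against 1525, 1814 and 2035 CPM with mock. Chitin was the lower one in each of the 6 pairs, and the change averaged over genotypes was -0.31 ± 0.12 (adjusted p = 0.0486, or 0.000153 with the block); within either genotype it passed only with the block. The average call was lost without any of 8 of the 12 libraries.

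Genes for extrinsic proteins of the oxygen-evolving complex, which stabilise the manganese cluster of photosystem II, included the most clearly lowered gene outside Rubisco. PSBO2 (AT3G50820), one of 2 genes for the manganese-stabilising protein, had 202, 162 and 194 CPM in mapkkk5 chitin libraries of experiments 1, 2 and 3, against 317, 318 and 341 CPM in mapkkk5 mock libraries. In Col it had 204, 175 and 167 CPM with chitin, against 393, 307 and 349 CPM with mock. Every chitin library was well below every mock library. It fell by 0.81 ± 0.13 on the log2 scale in mapkkk5 (adjusted p = 0.000258) and by 0.94 ± 0.13 in Col (adjusted p = 5.82e-05). The more abundant copy PSBO1 (AT5G66570) changed by -0.31 ± 0.16 and -0.42 ± 0.16, which passed only with the block (adjusted p = 0.00978 in mapkkk5 and 0.00151 in Col).

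Of the 10 photosystem II subunit genes, 3 fell in mapkkk5 (PSBO2, PSBQ1 and PSBY) and 6 in Col (the same 3 with PSBP1, PSBS and PSBX). Of all genes 15.7% and 17.3% fell. With the block 8 fell in each, where 22.7% and 23.8% of all genes fell. PSBP1 and PSBQ1 encode further extrinsic proteins of water oxidation, and their log2 changes were -0.42 and -0.42 in mapkkk5 and -0.57 and -0.49 in Col. PSBS, the sensor of excess light for heat dissipation, changed by -0.26 in mapkkk5 and -0.36 in Col. PSBX and PSBY, small membrane subunits, changed by -0.37 and -0.40 in mapkkk5 and by -0.54 and -0.51 in Col. PSBR (AT1G79040), also a subunit near the oxygen-evolving side, had the smallest average change, with 1791, 1583 and 1252 CPM in mapkkk5 chitin libraries of experiments 1, 2 and 3, against 1538, 1502 and 1411 CPM in mapkkk5 mock libraries. In Col it had 1803, 1306 and 956 CPM with chitin, against 1881, 1225 and 1288 CPM with mock. The groups overlapped in both genotypes, and the change averaged over them was -0.03 ± 0.15 (adjusted p = 0.893, or 0.653 with the block). PSBW, a small membrane subunit, likewise did not pass in either fit, at -0.07 ± 0.21 in mapkkk5 and -0.15 ± 0.21 in Col.

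Of the 12 photosystem I subunit genes, 8 fell and 0 rose in the average response, where 25.2% of all genes fell, and the changes ran from -0.08 (PSAD2) to -0.57 (PSAH2 and PSAD1). In mapkkk5 2 fell and in Col 3, which is near the share of all genes that fell (15.7% and 17.3%). With the block 9 fell in mapkkk5 and 10 in Col, where 22.7% and 23.8% of all genes fell. PSAH1 (AT3G16140), for a subunit at the docking site of mobile antenna, had 226, 243 and 220.0 CPM in mapkkk5 chitin libraries of experiments 1, 2 and 3, against 262, 298 and 286 CPM in mapkkk5 mock libraries. Its Col libraries had 219, 211 and 191 CPM with chitin, against 274, 277 and 262 CPM with mock. No chitin library reached the lowest mock library of its genotype. PSAH1 fell by 0.30 ± 0.10 in mapkkk5 (adjusted p = 0.0302) and by 0.39 ± 0.10 in Col (adjusted p = 0.00632), and its second copy PSAH2 by 0.58 ± 0.19 and 0.57 ± 0.19 (adjusted p = 0.0289 and 0.0282). PSAD1, for the subunit that docks ferredoxin, fell by 0.63 ± 0.20 in Col (adjusted p = 0.0254); in mapkkk5 it changed by -0.50 ± 0.20 (adjusted p = 0.0705, or 0.00041 with the block). PSAD2 (AT1G03130), the second copy, had 157, 142 and 66.2 CPM in mapkkk5 chitin libraries of experiments 1, 2 and 3, against 143, 138 and 71.1 CPM in mapkkk5 mock libraries. For Col the values were 154, 122 and 72.8 CPM with chitin, against 178, 153 and 74.3 CPM with mock. Chitin and mock libraries overlapped, and the average change was -0.08 ± 0.27 (adjusted p = 0.825). The remaining 8 subunits ran from -0.12 (PSAE2) to -0.40 (PSAO) in the average response; of these PSAF, which docks plastocyanin, PSAG, PSAK, PSAL and PSAO fell.

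Of the 5 genes for electron carriers and ATP synthase, 3 fell in mapkkk5 and 4 in Col, where 15.7% and 17.3% of all genes fell. With the block 5 fell in each, where 22.7% and 23.8% of all genes fell. ATPD (AT4G09650), the delta subunit that joins the catalytic head of ATP synthase to its stalk, had 325, 217 and 308 CPM in mapkkk5 chitin libraries of experiments 1, 2 and 3, against 459, 407 and 479 CPM in mapkkk5 mock libraries. Col libraries had 298, 270.2 and 297 CPM with chitin, against 508, 461 and 494 CPM with mock. All chitin libraries lay below all mock libraries of the same genotype. It fell by 0.66 ± 0.14 in mapkkk5 (adjusted p = 0.00233) and by 0.76 ± 0.14 in Col (adjusted p = 0.000763). ATPC1, the gamma subunit that turns within the head, fell by 0.40 ± 0.13 in mapkkk5 (adjusted p = 0.0322) and by 0.53 ± 0.13 in Col (adjusted p = 0.00604).

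The 2 plastocyanin genes are PETE1 and PETE2, whose copper protein carries electrons to photosystem I. PETE2 fell by 0.38 ± 0.11 in mapkkk5 (adjusted p = 0.0186) and by 0.37 ± 0.11 in Col (adjusted p = 0.0196). PETE1, which held far fewer reads, fell by 0.89 ± 0.24 in Col (adjusted p = 0.00914); in mapkkk5 it changed by -0.59 ± 0.24 (adjusted p = 0.0685, or 6.41e-05 with the block). PETC (AT4G03280), the Rieske iron-sulfur protein of the cytochrome b6f complex, had 446, 577 and 611 CPM in mapkkk5 chitin libraries of experiments 1, 2 and 3, against 504, 649 and 744 CPM in mapkkk5 mock libraries. In Col libraries PETC had 416, 517 and 525 CPM with chitin, against 525, 571 and 703 CPM with mock. The groups overlapped, but chitin was the lower one in every pair. Its average change was -0.26 ± 0.12 (adjusted p = 0.0877, or 0.000981 with the block).

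**Figure D2:**
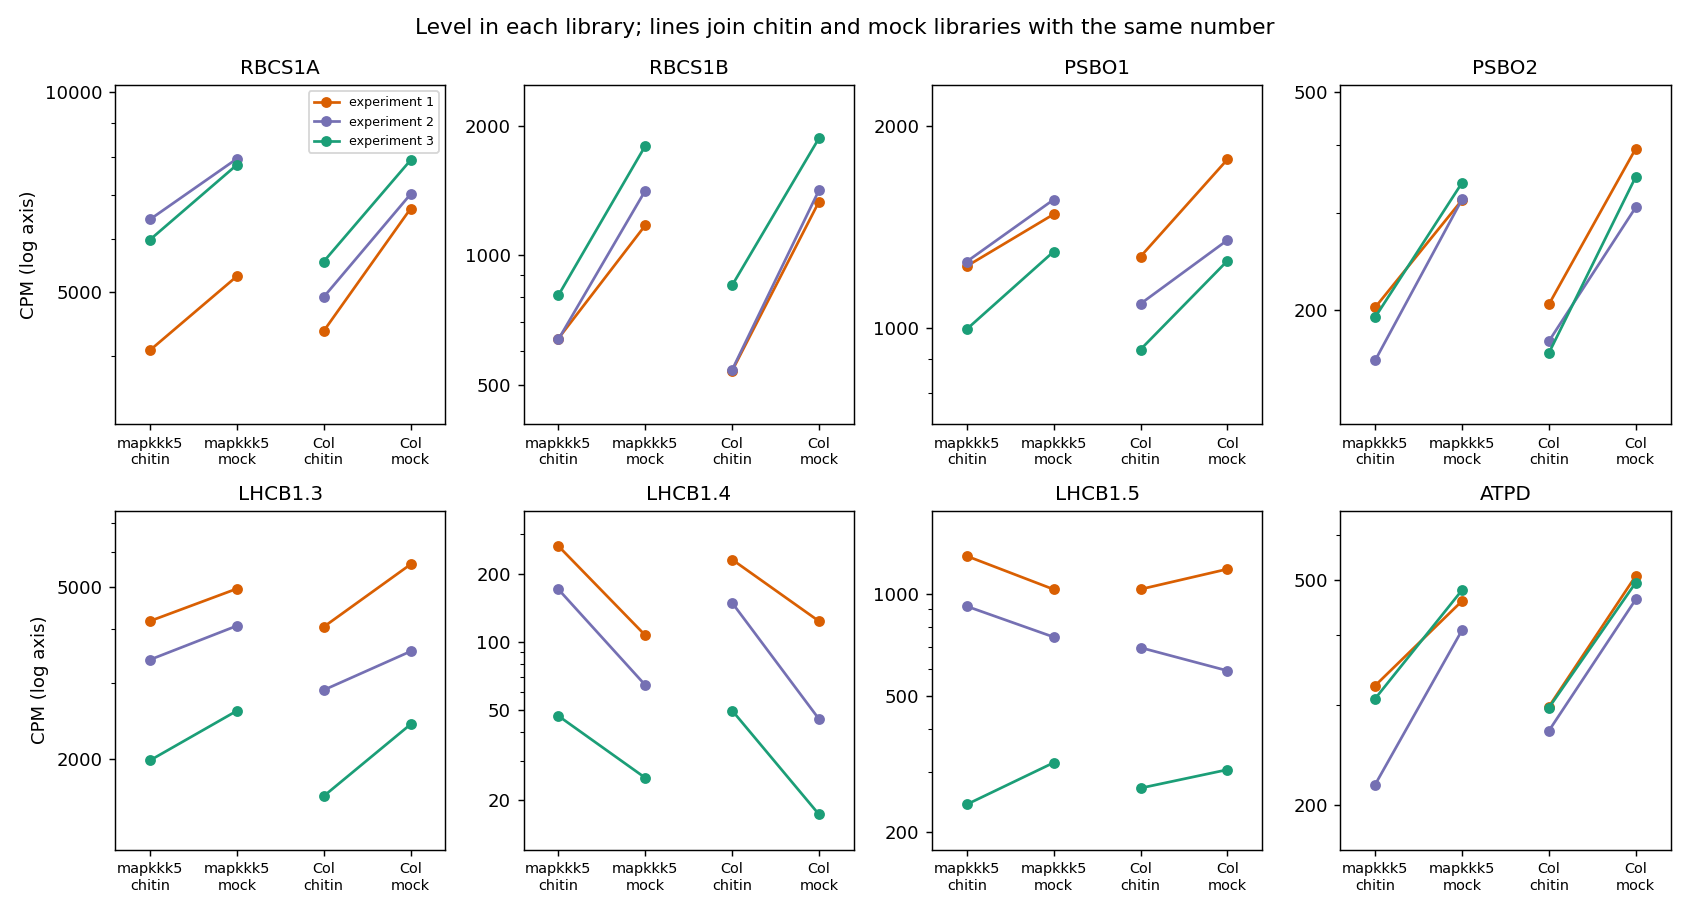
CPM on a log axis in each of the 12 libraries for 8 genes, grouped as mapkkk5 chitin, mapkkk5 mock, Col chitin and Col mock; each line joins the chitin and mock library with the same experiment number. RBCS1A, RBCS1B, PSBO1, PSBO2, LHCB1.3 and ATPD are lower with chitin in all 6 pairs, LHCB1.4 is higher in all 6, and LHCB1.5 is mixed; the LHCB1 genes also step down over experiments 1, 2 and 3.

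In the antenna genes the span between experiments was larger than the average chitin change, by little in LHCA2 and LHCB4.1. This is not particular to the antenna. The same held for many genes of other groups, among them most photosystem I subunit genes, PSBQ2, PSBR, RCA and PETC. It did not hold for others, such as RBCS1B, PSBO2, PSAH1 and ATPD. None of the 9 major antenna genes, 4 photosystem I antenna genes or 5 minor antenna genes passed in either genotype without the block, and at an unadjusted p below 0.05 there were 0 in mapkkk5 and, in Col, 1 photosystem I and 1 minor antenna gene. With the block, 3 major, 2 photosystem I and 4 minor antenna genes fell in mapkkk5, and 3, 4 and 5 in Col. Of all genes 22.7% and 23.8% fell in that fit. In the response averaged over genotypes, LHCA2 and LHCB4.1 fell without the block, where 25.2% of all genes fell.

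LHCB1.3, the leading gene of the trimeric light-harvesting complex II, had 4164, 3393 and 1989 CPM in mapkkk5 chitin libraries of experiments 1, 2 and 3, against 4943, 4060.2 and 2587 CPM in mapkkk5 mock libraries. In Col it had 4038, 2888 and 1645 CPM with chitin, against 5625, 3546 and 2408 CPM with mock. Chitin was below mock in each pair but the groups overlapped across experiments. The log2 change was -0.28 ± 0.37 in mapkkk5 (adjusted p = 0.602, or 0.0131 with the block) and -0.43 ± 0.37 in Col (adjusted p = 0.386, or 0.000817 with the block). LHCB3, a further trimer subunit, changed by -0.73 ± 0.54 and -0.81 ± 0.55 in mapkkk5 and Col, and its fall passed only with the block (adjusted p = 1.74e-05 and 6.83e-06).

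LHCB1.4 (AT2G34430) went the other way. It had 265, 171 and 47.2 CPM in mapkkk5 chitin libraries of experiments 1, 2 and 3, against 107, 64.6 and 25.2 CPM in mapkkk5 mock libraries. In Col the values were 231, 149 and 49.9 CPM with chitin, against 124, 45.7 and 17.4 CPM with mock. Within every experiment the chitin library was above its mock library, although chitin libraries of experiment 3 were below mock libraries of experiment 1. The log2 change was 1.29 ± 0.74 in mapkkk5 (adjusted p = 0.199, or 7.97e-06 with the block) and 1.2 ± 0.74 in Col (adjusted p = 0.223, or 2.88e-06 with the block). LHCB1.5 (AT2G34420), its neighbour, had 1293, 919.7 and 240.3 CPM in mapkkk5 chitin libraries of experiments 1, 2 and 3, against 1031, 747 and 319 CPM in mapkkk5 mock libraries. For Col they were 1032, 695 and 268 CPM with chitin, against 1183, 594 and 304 CPM with mock. Its average change was 0.08 ± 0.44 (adjusted p = 0.891, or 0.908 with the block), up in some pairs and down in others. LHCB2.1, for another trimer subunit, rose with the block in mapkkk5 (log2 change 0.32, adjusted p = 0.0189) and had a change of 0.11 in Col (adjusted p = 0.371). LHCB2.3 overlaps a gene on the other strand by 595 bases, and that gene held 5871 reads in all against 902 for LHCB2.3; the sources do not say whether counting used strand, so its values are uncertain.

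The photosystem I antenna is built from LHCA1 to LHCA4. LHCA2 (AT3G61470) had 823, 1002 and 673 CPM in mapkkk5 chitin libraries of experiments 1, 2 and 3, against 979, 1099 and 849 CPM in mapkkk5 mock libraries. In Col its values were 778, 843 and 595 CPM with chitin, against 1109, 969.7 and 851 CPM with mock. The groups overlapped in mapkkk5 and were apart in Col. The average change was -0.32 ± 0.12 (adjusted p = 0.0429), a call lost without any of 8 of the 12 libraries. LHCA4 (AT3G47470) had 842, 665 and 263 CPM in mapkkk5 chitin libraries of experiments 1, 2 and 3, against 926, 739 and 304 CPM in mapkkk5 mock libraries. Its levels in Col were 835, 558 and 242 CPM with chitin, against 1094, 601 and 312 CPM with mock. It was lower with chitin in all pairs, but experiment 3 stood far below the others, and the average change was -0.22 ± 0.38 (adjusted p = 0.654, or 0.00887 with the block).

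The minor antenna links the trimers to the photosystem II core through CP29 (LHCB4 genes), CP26 (LHCB5) and CP24 (LHCB6). LHCB4.1 (AT5G01530) had 923, 922 and 698 CPM in mapkkk5 chitin libraries of experiments 1, 2 and 3, against 1122, 1052 and 927 CPM in mapkkk5 mock libraries. Col libraries had 884, 849.9 and 642 CPM with chitin, against 1263, 1028 and 872 CPM with mock. The groups were apart in mapkkk5 and overlapped in Col, and the average change was -0.35 ± 0.12 (adjusted p = 0.0242), a call lost without any of 4 libraries. LHCB4.2 (AT3G08940), a second CP29 gene, had 175, 146 and 74.6 CPM in mapkkk5 chitin libraries of experiments 1, 2 and 3, against 164, 149 and 70.3 CPM in mapkkk5 mock libraries. In Col there were 153, 114 and 61.8 CPM with chitin, against 189, 131 and 75.6 CPM with mock. It was lower in all 3 Col pairs only, and its average change was -0.11 ± 0.29 (adjusted p = 0.779, or 0.12 with the block). LHCB5 and LHCB6 had average changes of -0.39 ± 0.17 and -0.47 ± 0.24, which passed with the block only.

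Because these families mix copies that moved by different amounts, each copy was also expressed as its ratio to the most abundant copy of its family, per length of coding sequence. This comparison was chosen after the values had been seen. Of 17 ratios, 10 moved the same way in all 6 pairs. A share for ratios of other genes was not computed. Of all single genes, 27.6% were lower in all 6 pairs. Several ratios share a most abundant copy, so the 17 are not separate observations. For each of the 10, the exact two-sided sign-flip test over the 6 pairs gave p = 0.0312. That is the smallest it can give, and it follows whenever all 6 pairs move the same way. The test also treats the 2 genotypes of an experiment as separate. The adjusted p over the 17 was 0.0531, which does not pass the threshold. LHCB1.4 over LHCB1.3 was 0.0238 to 0.0639 in mapkkk5 with chitin and 0.0098 to 0.0218 with mock. In Col it was 0.0304 to 0.0575 with chitin and 0.0072 to 0.0221 with mock. The chitin and mock ranges did not overlap, and the mean log2 change was 1.66 ± 0.32 (SD over 6 pairs).

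PSBO2 over PSBO1 was 0.129 to 0.195 in mapkkk5 with chitin and 0.205 to 0.263 with mock, and 0.161 to 0.180 in Col with chitin and 0.221 to 0.279 with mock. RBCS1B over RBCS1A was 0.0985 to 0.156 in mapkkk5 with chitin and 0.177 to 0.230 with mock, and 0.110 to 0.152 in Col with chitin and 0.199 to 0.236 with mock. Neither pair of ranges overlapped. Mean log2 changes were -0.51 ± 0.11 and -0.72 ± 0.14. Ratios that moved up in all pairs were PSAD2 over PSAD1 (0.48 ± 0.07), PSAH1 over PSAH2 (0.25 ± 0.13), LHCB4.2 over LHCB4.1 (0.25 ± 0.16), PSAE2 over PSAE1 (0.17 ± 0.06) and PSBQ2 over PSBQ1 (0.10 ± 0.08). RBCS2B over RBCS1A (-0.37 ± 0.15) and LHCB2.3 over LHCB2.1 (-0.63 ± 0.42) moved down in all. For the RBCS ratios the uncertain split of reads among copies applies. It also applies to LHCB1.4, with 22.9% of its 50-base words in LHCB1.5, and to LHCB2.1, with 24.0% in LHCB2.2. LHCB1.3, to which LHCB1.4 was compared, shares such words with LHCB1.1. LHCB2.3 is uncertain through its overlap with a gene on the other strand. The PSBO, PSAD, PSAE, PSAH and PSBQ copies shared no 50-base word.

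**Figure D3:**
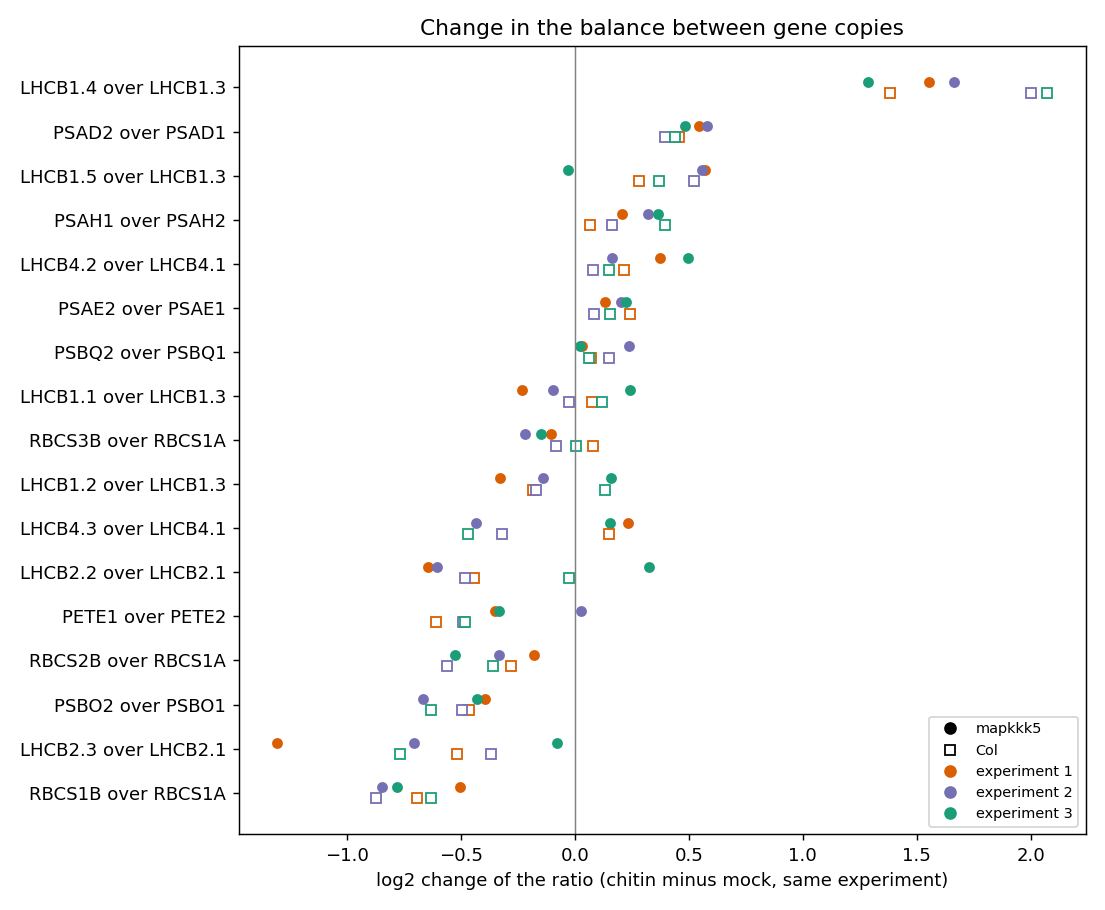
log2 change, chitin minus mock within an experiment, of the ratio of each gene copy to the most abundant copy of its family; circles are mapkkk5, squares Col, and colours the 3 experiments. LHCB1.4 over LHCB1.3 lies furthest to the right, with all 6 points above 1.2, and RBCS1B over RBCS1A has all 6 points left of 0.

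Levels also differed between experiments, within groups. The F test for experiment in the block fit called 44 of 50 genes, where it called 23.4% of all genes tested (adjusted p below 0.05). The 9 major antenna genes each had their highest mean in experiment 1, the next in experiment 2 and the lowest in experiment 3. LHCB1.1 averaged 391, 259.9 and 57.5 CPM over the 4 libraries of experiments 1, 2 and 3, and LHCB2.1 averaged 86.6, 43.2 and 15.7 CPM. LHCB1.3 averaged 4693, 3472 and 2157 CPM. The uncertain split of reads among copies applies to these genes as well. The span between the highest and the lowest experiment had a median of 2.16 on the log2 scale in the major antenna, 1.00 in the minor antenna, 0.93 in the photosystem I antenna, 0.49 in photosystem I subunits and 0.41 in photosystem II subunits.

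All 5 genes for Rubisco and its activase had their highest mean in experiment 3, as did PETC, ATPC1 and LHCB4.3. RBCS2B averaged 1065, 1349.7 and 1800.1 CPM over experiments 1, 2 and 3, and RCA 1264, 1539.9 and 1748 CPM. LHCB4.3, the third CP29 gene, averaged 31.9, 47.5 and 70.3 CPM. The 6 genes not called were RBCS3B, PSBO2, PSBQ1, PSBY, PSAH1 and PETE2, all of which fell with chitin. Genes that fell in the average response spanned 0.10 to 0.76 between experiments, with a median of 0.41, and those that did not pass spanned 0.45 to 2.76, with a median of 1.13. This split follows from the fit without the block, whose residual spread holds the differences between experiments. What differed between the experiments is not stated in the labels.

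**Figure D4:**
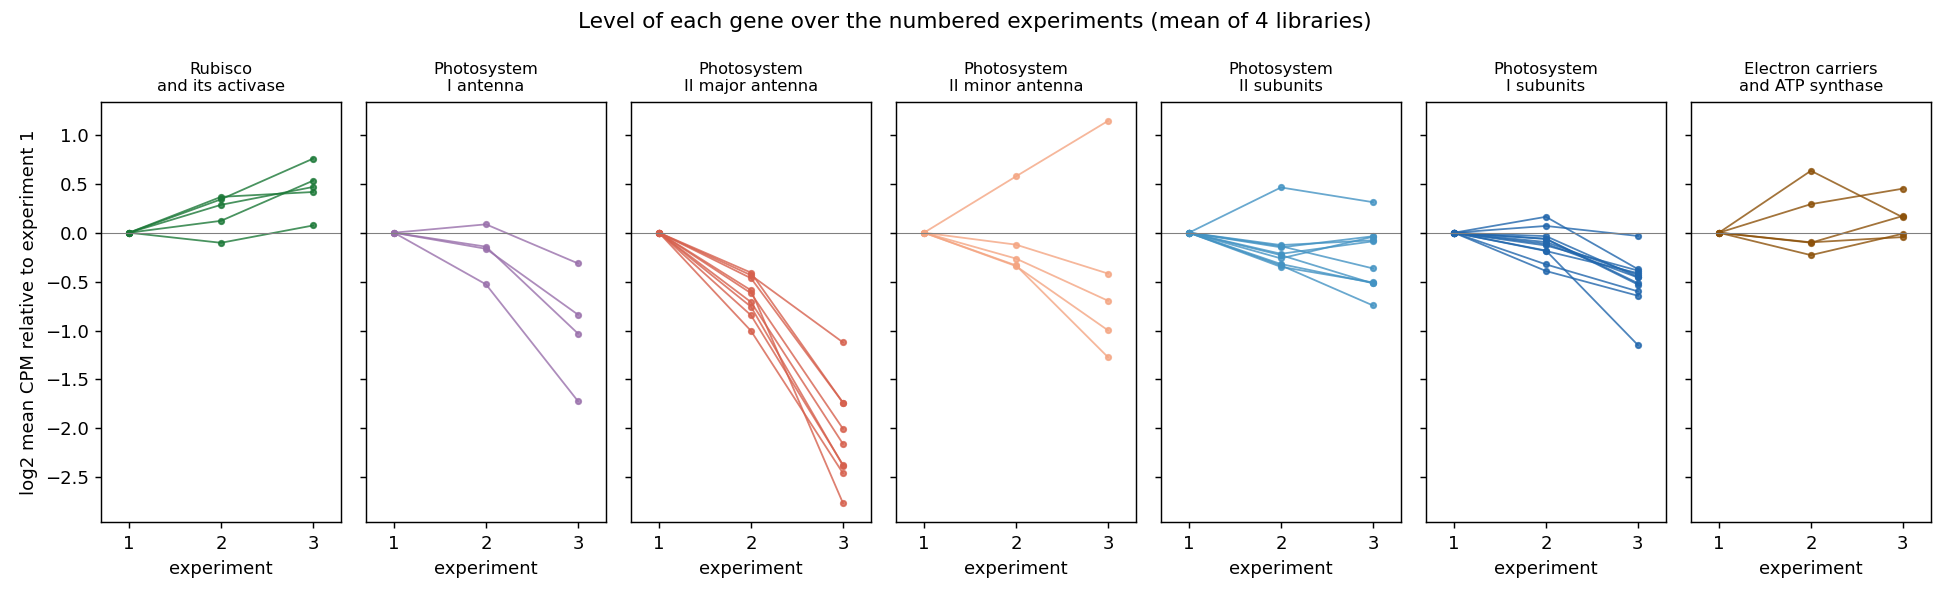
log2 mean CPM of each gene in experiments 1, 2 and 3, relative to experiment 1, with 1 panel for each complex and 1 line for each gene (mean of 4 libraries). All 9 major antenna genes step down to between -1.1 and -2.8 in experiment 3, the Rubisco genes lie above 0 there, and LHCB4.3 is the rising line among the minor antenna.

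Between genotypes no gene of the 50 passed the threshold. Among mock libraries the fit called 0 of 50 (0 with the block), where 0.0191% of all genes were called (0.0333% with the block). An unadjusted p below 0.05 was found for 0 of 50 genes (2 with the block), against 463 of all 20994 genes (1339 with the block). After chitin 0 of 50 were again called in both fits, where 0.0714% of all genes were called (0.457% with the block). There 0 of 50 had an unadjusted p below 0.05 (6 with the block), against 1276 of all genes (3002 with the block). DESeq2 called 0 of 50 in both comparisons. The median log2 fold change of mapkkk5 over Col was -0.01 in mock and 0.11 after chitin. LHCB4.2 had the lowest p after chitin in the block fit, with a log2 change of 0.27 and an adjusted p of 0.181.

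The chitin responses of the genotypes share no libraries, and their difference was tested directly. No gene passed in either fit (background 0.0% without and 0.00953% with the block), and DESeq2 called 0. At an unadjusted p below 0.05 there were 0 genes without and 2 with the block, against 275 and 653 of all 20994 genes. The difference, mapkkk5 minus Col, was above 0 for 46 of 50 genes, against 10040 of all 20994 genes. Above 0 means that the change was less negative or more positive in the mutant. The 50 genes were read in the same libraries, so their signs are not separate observations. Their median difference was 0.13. The median turned to -0.05 without the Col mock library of experiment 1 and to -0.03 without the Col chitin library of experiment 3. Within experiments, the median difference was 0.25, 0.00 and 0.13, with 47, 25 and 40 of 50 genes above 0 in experiments 1, 2 and 3. Shares of all genes above 0 within experiments are not given here. For RBCS1B the difference was 0.19 with a 95% interval of -0.45 to 0.82, and with the block 0.22 with an interval of -0.04 to 0.47. For PSBO2 it was 0.14 with an interval of -0.24 to 0.51, and with the block 0.12 with an interval of -0.14 to 0.39. The half-width of the interval had a median of 0.63 over the 50 genes without the block and of 0.27 with it. With the block the intervals of LHCB4.2 (0.06 to 0.56) and PETE1 (0.04 to 0.56) excluded 0, and neither gene passed after adjustment.

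Other genes of the same pathways, on lists drawn up by function, mostly moved the same way. In the average response 15 of 22 tested chlorophyll synthesis genes fell and 0 rose (median log2 change -0.39). For this list and those below, 25.2% of all genes fell and 27.0% rose in that response. PORC, which reduces protochlorophyllide in the light, averaged 72.4 ± 10.9 CPM in mapkkk5 with chitin and 137 ± 13.5 CPM with mock, and 71.5 ± 7.80 CPM in Col with chitin and 147 ± 12.3 CPM with mock (SD, n = 3 each). It fell by 0.98 on the log2 scale (adjusted p = 1.05e-06). DVR, which reduces the vinyl group of chlorophyll precursors, fell by 0.76 (adjusted p = 2.2e-05). Of 17 Calvin-Benson cycle genes 11 fell and 0 rose (median -0.48), among them GAPA2, a subunit of the chloroplast glyceraldehyde-phosphate dehydrogenase (-0.74, adjusted p = 4.38e-06), and CFBP1, fructose-bisphosphatase (-0.70, adjusted p = 4.17e-05).

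Of 19 other light reaction genes 12 fell and 3 rose (median -0.27), against 25.2% and 27.0% of all genes. LHCA6, which links photosystem I to the NDH complex, changed by -0.84 (adjusted p = 1.52e-06), and PSB27, a photosystem II assembly factor, by -0.62 (adjusted p = 2.15e-05). The 3 that rose were ELIP1 and ELIP2, early light-induced proteins known from light stress, at 0.50 and 1.11 (adjusted p = 6.56e-05 and 3.77e-05), and STN7, the kinase that phosphorylates the major antenna, at 0.38 (adjusted p = 0.000331). Of 8 chlorophyll breakdown genes 2 rose and 3 fell (4 and 3 with the block), against 27.0% and 25.2% of all genes, so these counts do not set the list apart. PPH, pheophytinase, rose by 0.57 (adjusted p = 1.5e-05) and SGR1, which removes magnesium from chlorophyll, by 0.63 (adjusted p = 0.00101), while NOL and HCAR, both of the chlorophyll b branch, fell by 0.36 and 0.30 (adjusted p = 0.0104 and 0.0156), as did RCCR, red chlorophyll catabolite reductase (-0.27, adjusted p = 0.0331).

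Of 18 regulators of photosynthesis genes tested, 8 rose and 2 fell (median 0.00), against 27.0% and 25.2% of all genes. With the block 8 rose and 4 fell, against 31.3% and 30.2%. PIF3, a phytochrome-interacting factor, rose by 0.64 (adjusted p = 1.41e-06) and HY5, a bZIP factor of light signalling, by 0.59 (adjusted p = 2.38e-05). SIG2 and SIG6, sigma factors that direct the plastid RNA polymerase, fell by 0.67 and 0.48 (adjusted p = 5.78e-06 and 0.000126). None of 16 plastid-encoded counterparts passed, with 0 at an unadjusted p below 0.05 and 0 called with the block. The lowest p among them was 0.202, for psbD. The libraries were made by poly(A) selection, which plastid transcripts mostly escape, and they held few reads: rbcL, for the large subunit of Rubisco, averaged 33.3 CPM in mapkkk5 with chitin and 40.8 CPM with mock, and 36.5 CPM in Col with chitin and 34.5 CPM with mock.

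**Figure D5:**
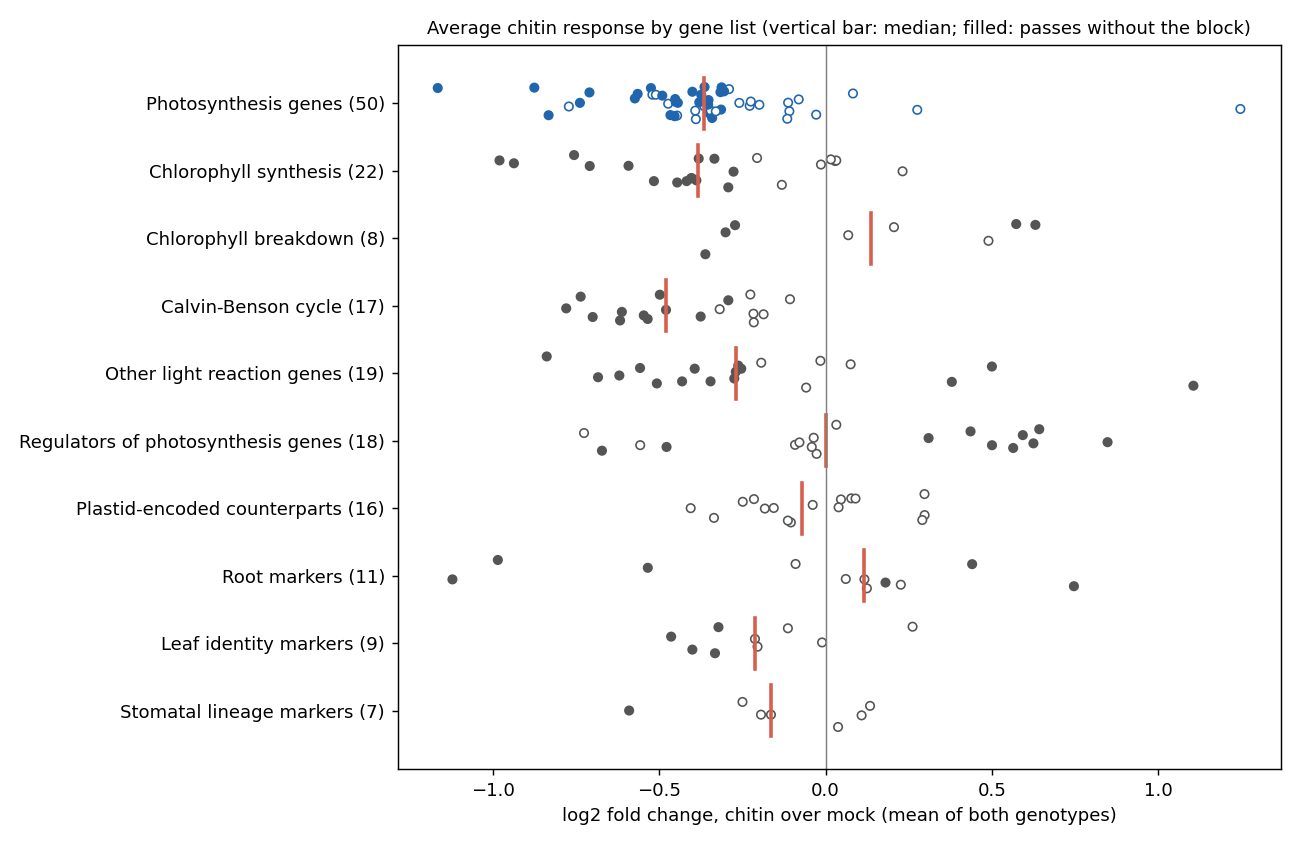
Average log2 fold change of chitin over mock for each tested gene of the 50 and of 9 further lists; filled points pass the threshold without the block and the vertical bar is the list's median. Medians lie at -0.36 for the 50 genes, -0.39 for chlorophyll synthesis, -0.48 for the Calvin-Benson cycle and -0.27 for other light reaction genes, near 0 for regulators and plastid-encoded genes, and at -0.21 for leaf identity markers.

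Markers of seedling organs were followed beside these values. Of 9 leaf identity markers 4 fell and 0 rose in the average response (median -0.21), against 25.2% and 27.0% of all genes. Their summed level was 189.6 to 234 CPM in mapkkk5 with chitin and 215 to 249.8 CPM with mock, and 207 to 224 CPM in Col with chitin and 227 to 279 CPM with mock; AS1, a leaf polarity gene, fell by 0.40 (adjusted p = 0.000287) and REV by 0.33 (adjusted p = 0.00285). Of 11 root markers 3 rose and 3 fell, near the shares of all genes (27.0% and 25.2%). The root sum was 1461 to 2164 CPM in mapkkk5 with chitin and 3082 to 4812 CPM with mock, and 1607 to 2940 CPM in Col with chitin and 3628 to 5327 CPM with mock. PYK10, a root beta-glucosidase, made up most of it, and without it the sum was 149 to 193 CPM in mapkkk5 with chitin and 145 to 157 CPM with mock, and 166 to 199 CPM in Col with chitin and 136 to 162 CPM with mock. WOX5, the marker of the root stem cell niche, had 0.85 to 1.28 CPM in mapkkk5 with chitin and 1.58 to 2.51 CPM with mock, and 0.61 to 1.38 CPM in Col with chitin and 1.34 to 2.57 CPM with mock. Of 7 stomatal lineage markers 1, EPF2, fell, against 25.2% of all genes. The 7 seed storage markers, of which 5 were tested and none passed, summed to 0.21 to 81.9 CPM in mapkkk5 with chitin and 0.76 to 76.6 CPM with mock, and 0.25 to 0.94 CPM in Col with chitin and 0.59 to 23.2 CPM with mock. The part of these markers in the lower photosynthesis transcripts was not tested.

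The 250 bases before the annotated start were searched on both strands for 5 short motifs known from light-regulated or defence promoters. The G-box (CACGTG) was found in 20.0% of the 50 genes and in 6.49% of 27443 protein-coding genes, the I-box (GATAAG) in 26.0% and 12.3%, and the CCAAT-type box (CCAATC) in 30.0% and 10.2%. The W-box core (TTGACC or TTGACT), bound by WRKY factors, was found in 16.0% and 28.4%, and the evening element core (AATATCT), known from clock-regulated genes, in 12% and 10%. In the major antenna 5 of 9 genes held the CCAAT-type box and 0 the W-box. In 1 case matches to different motifs overlapped, and 23 of 50 genes held no match. The distance from the annotated start to the start codon differs between genes, and the bases between them were not searched. A gene or copy without a match here can therefore hold one nearer its start codon.

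Upstream sequences are shown for pairs of neighbouring copies that differed in size or direction of change: RBCS1B (chr5:15385321-15385570) and RBCS2B (chr5:15382072-15382321), both on the minus strand, and LHCB1.4 (chr2:14524357-14524606, plus) and LHCB1.5 (chr2:14523569-14523818, minus), with 1038 bases between their starts. They are from RefSeq, build TAIR10.1, on the gene's strand and end at the base before the gene's outermost annotated start. Capitals mark the G-box, I-box and CCAAT-type box on either strand.
RBCS1B: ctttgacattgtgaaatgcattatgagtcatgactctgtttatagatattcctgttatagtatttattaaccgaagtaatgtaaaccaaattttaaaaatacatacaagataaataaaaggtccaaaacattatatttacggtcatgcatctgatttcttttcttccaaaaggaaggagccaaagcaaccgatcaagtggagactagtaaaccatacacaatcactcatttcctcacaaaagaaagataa
RBCS2B: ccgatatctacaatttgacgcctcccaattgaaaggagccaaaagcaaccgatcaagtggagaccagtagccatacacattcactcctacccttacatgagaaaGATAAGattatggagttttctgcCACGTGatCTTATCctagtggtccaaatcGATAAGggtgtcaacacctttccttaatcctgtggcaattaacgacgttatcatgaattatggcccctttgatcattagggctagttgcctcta
LHCB1.4: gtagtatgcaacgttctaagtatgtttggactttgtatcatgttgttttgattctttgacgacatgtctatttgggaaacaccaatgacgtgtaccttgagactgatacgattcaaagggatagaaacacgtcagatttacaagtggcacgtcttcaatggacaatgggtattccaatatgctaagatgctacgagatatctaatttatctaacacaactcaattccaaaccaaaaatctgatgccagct
LHCB1.5: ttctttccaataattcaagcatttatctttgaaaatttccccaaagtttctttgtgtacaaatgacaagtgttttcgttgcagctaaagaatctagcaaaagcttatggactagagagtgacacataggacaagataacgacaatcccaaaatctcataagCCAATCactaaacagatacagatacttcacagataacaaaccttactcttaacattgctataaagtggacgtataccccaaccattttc
RBCS2B holds a G-box 123 bases before the start and I-boxes at 146, 115 and 94 bases. LHCB1.5 holds a CCAAT-type box at 89 bases. RBCS1B, which fell most, and LHCB1.4, which was higher with chitin, hold none of these 3 motifs in this window, and RBCS1B holds an evening element core 207 bases before its start. The matches are a description of letters only and were not related to the changes by any test.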

How the data were processed

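The deposited table holds raw read counts per gene for 12 libraries, made by the authors from poly(A)-selected RNA with a directional kit. Per the submitters' processing notes, the tools were TopHat2 2.0.10 and HTSeq 0.6.1, with CASAVA 1.8.2 and cutadapt 1.5 also named, and the genome was TAIR10. The strand setting and the treatment of reads with several matches are not stated there. The 50 genes, the lists and the tests were chosen with earlier results of these data known. Values per library are given for the gene with the smallest p and the one with the smallest change of the average response in each role group, and for the 4 RBCS genes; LHCB1.3 was added after its values were seen. Of each further list, up to 2 genes that rose and 2 that fell with the smallest p are named, or the one with the smallest p where none passed; RCCR and the third gene that rose among other light reaction genes were added after their values were seen.

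Counts were fitted with edgeR 4.0.16 in R 4.3.3 (TMM scaling, filterByExpr, 4 groups, quasi-likelihood test, 8 residual degrees of freedom), with Benjamini-Hochberg adjustment over 20994 genes and a threshold of 0.05. Standard errors are the log2 change divided by the square root of F, and 95% intervals use the t quantile at the moderated degrees of freedom. CPM use the same scaling. The average response is the mean of the responses of both genotypes. In the 12 same-numbered pairs from groups that were compared, deviations from group means correlated at 0.156 to 0.509; over all 18 same-numbered pairs the lowest was -0.042 (Col mock with mapkkk5 chitin, number 1). Independent experiments are named in the design text, so a fit with the replicate block is given beside results it changes. Other alternatives were RLE and upper-quartile scaling, no filter, DESeq2 1.42.0, only the groups compared, and leaving out each library, each experiment or the near-identical copies. The fit was tested on simulated data for chitin in Col over 20994 genes. It recovered 88% of 100 genes changed by 1 and 99% of 100 changed by 2 on the log2 scale, with 7 false calls. Smaller changes were not simulated, and the median change of the genes described here was -0.41 in Col. LHCB1.4, at 1.2 in Col, was not called without the replicate block. The recovered shares therefore do not show how many changes among the genes described here were missed. No libraries were duplicates: replicates differed by 10.7 to 26.5 times counting noise (chi-square per degree of freedom). Limits set by counts of 0 cover counting error only. Coding sequences were aligned with Biopython 1.88. Sequences were read from the RefSeq TAIR10.1 genome, and 113 of 136 list genes matched its annotation by symbol, the others by gene code.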

Additional observations from a re-analysis of the deposited data

How the results depend on the processing

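With the replicate block, 36 genes fell and 2 rose in mapkkk5, 40 fell and 1 rose in Col, and 41 fell and 2 rose in the average response; it changed no call between genotypes. Upper-quartile scaling gave medians of -0.39 in mapkkk5, -0.52 in Col and -0.46 in the average response, and LHCB1.5 at -0.0090. Without a filter on low counts 1 gene rose in the average response. In mapkkk5 7, 5 and 7 genes fell without experiments 1, 2 and 3, and 1 rose without experiment 3. In Col 10 fell without experiment 2, and in the average response 15 fell without experiment 2 and 1 rose without experiment 3. Shares of all genes called without an experiment are not given, so these counts cannot be set against them. LHCB1.5 stood at -0.0090 without experiment 2 and PSBR at 0.076 without experiment 3. The genotype median in mock was 0.12 without experiment 1 and 0.0013 without the near-identical copies.

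Leaving out 1 library at a time, 8 to 12 genes fell in mapkkk5 (median -0.42 to -0.21) and 11 to 17 in Col (median -0.54 to -0.26), with 11 in Col both without Col mock replicate 1 and without Col chitin replicate 3. In the average response 19 to 27 fell and 0 to 1 rose (median -0.43 to -0.28). For these runs too the shares of all genes called are not given. The genotype median ran from -0.11 to 0.16 in mock and from -0.028 to 0.25 after chitin, and that of the difference of responses from -0.053 to 0.24. Average changes ran from -0.45 to 0.051 for LHCA4, -0.16 to 0.40 for LHCB1.5, -0.27 to 0.067 for LHCB4.2, -0.16 to 0.082 for PSBR and -0.23 to 0.068 for PSAD2. The calls of RCA and LHCA2 were each lost without 8 of 12 libraries and that of LHCB4.1 without 4, while LHCB1.4 passed without 4. The cause of these shifts was not tested.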
